A study of Mus musculus with 20 samples.

Results

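Mouse blastocysts were compared with all earlier stages of preimplantation development in the same series, to find the transcripts that set the blastocyst apart. The 4 blastocyst arrays were set against the other 16 arrays, which held oocytes, 1-cell, 2-cell and 8-cell embryos with 4 arrays each. Each earlier stage was given equal weight, and all 20 arrays of the series were used. The labels name the species and the stage and state that total RNA was amplified by 2 rounds of in vitro transcription (IVT). They name no strain, age, sex, culture condition, hour of collection or number of embryos per array, and they do not say whether the 4 arrays of a stage came from separate collections, so p-values measure only the spread between arrays.

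The blastocyst is the last stage before implantation. Its outer layer, the trophectoderm, is an epithelium that seals the embryo with junctions, pumps sodium and water inward to fill the cavity, and later forms the fetal part of the placenta. The inner cell mass holds the pluripotent cells of the future embryo and the primitive endoderm, the source of the yolk sac epithelium. The oocyte and the first cleavage stages run largely on transcripts stored by the mother, which are degraded as the genome of the embryo becomes active.

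Expression was read on the Affymetrix MOE430A array, on which a probe set is a group of short probes for a transcript. The values are linear probe-set intensities that the authors scaled to a common trimmed mean per array. A level is therefore a share of what an array measured, and an amount per embryo was not measured. In whole embryos, more cells of a type and more RNA per cell cannot be told apart. The blastocyst arrays correlated with each other at 0.960 to 0.974 on the log2 scale, with the 8-cell arrays at a mean of 0.874 and with the 1-cell arrays at a mean of 0.623. Median intensity was 43.1 ± 5.48 (SD, n = 4) in blastocysts and 36.5 to 58.1 on the 16 earlier arrays. The ratio of the 3′ to the 5′ control probe set of Actb was 1.52 to 2.22 in blastocysts and 3.45 to 6.01 on the earlier arrays, with no overlap. The ratio of the Gapdh controls was 3.51 to 8.31 in blastocysts and 0.777 to 1.86 in 8-cell embryos, again with no overlap, while the other earlier arrays, at 2.82 to 6.31, overlapped with the blastocysts. The 18S ribosomal RNA control read 11006.5 to 15355.4 on the 4 1-cell arrays, which stand apart in it, and 143.2 to 1127.7 on the other 16. The part of these measures in the results below was not tested. The number of arrays limits the precision of every value.

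Of 17208 probe sets tested, 4786 (27.8%) were higher in the blastocyst than the mean of the earlier stages and 6154 (35.8%) were lower, by limma's moderated test at a Benjamini-Hochberg adjusted p under 0.05. Differences are on the scale of log2(intensity + 12.15), which understates the change of dim probe sets. The 8-cell stage gave the fewest calls. Against oocytes 4897 (28.5%) were higher and 5283 (30.7%) lower, against 1-cell embryos 5148 (29.9%) and 6182 (35.9%), and against 2-cell embryos 4293 (24.9%) and 5644 (32.8%). Against 8-cell embryos 3359 (19.5%) were higher and 4383 (25.5%) lower. These comparisons share the 4 blastocyst arrays. The median difference of all probe sets from the mean of the earlier stages was −0.20. The balance between higher and lower calls followed the scaling. Higher calls made up 43.75% of 10940 calls on the authors' scaling, 48.21% after quantile normalization, 53.11% after median centring and 68.06% after scaling to the spiked hybridization controls, which moved the median of all probe sets to 0.20. Directions below are relative to the authors' scaling.

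Higher than the mean of the earlier stages did not mean higher than each of them. Only 1472 probe sets passed the test in the upward direction against all 4 stages, which is 8.55% of those tested and 30.8% of those called higher. In the downward direction 1272 probe sets did so, 7.39% of those tested and 20.7% of those called lower. A further 746 of the 4786 higher calls were significantly lower than at least 1 earlier stage. Both sets are called here higher or lower than every earlier stage. In 1233 probe sets of the upward set (7.17% of those tested) and 716 of the downward set (4.16%), the 4 blastocyst arrays lay beyond all 16 others.

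The 8-cell embryo was the nearest earlier stage for most of these transcripts. Of the 4 earlier stages it had the highest mean intensity for 874 of the 1472 higher probe sets. It had the lowest for 755 of the 1272 lower ones, 59.4% in each case. The median difference of the higher set was 1.25 from the 8-cell stage, against 1.88 from the oocyte, 2.13 from the 1-cell and 1.93 from the 2-cell stage. Among the lower set it was −0.87 from the 8-cell stage and −1.38 from the mean of the earlier stages. At gene level, with the brightest probe set of each of 10257 genes, 856 genes (8.35%) were higher than every earlier stage and 865 (8.43%) were lower. These shares are the background for the gene lists below. The 4 stage comparisons share the blastocyst arrays and are not independent of each other.

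Clone-like names aside, and with each gene read on its brightest probe set, Krt18, Fabp3, Adh1, Enpep and Krt8 had the 5 largest differences of the genes higher than every earlier stage with no overlap. Krt18, a type I keratin of simple epithelia, read 4572.7, 6242.1, 5362.1 and 5205.5 on the blastocyst arrays and 4.1 to 600.4 (median 41.2) on the earlier ones. Its difference was 6.35 ± 0.18 on the log2 scale (SE, adjusted p = 5.61e-21). Krt8, the type II keratin that pairs with Krt18, read 4144.3, 4661.3, 4580.4 and 4101.8, against 38.7 to 452.4 before, a difference of 5.17 ± 0.21. Both keratins had been rising before the blastocyst, and their 8-cell means, 395.5 and 347.6, stood above every other earlier stage mean.

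Fabp3, a fatty-acid-binding protein of the cytosol, came next at 6.05 ± 0.17, with blastocyst arrays of 3072.9, 4300.6, 2664.2 and 3100.1 and earlier arrays of 9.5 to 197.4. Adh1, an alcohol dehydrogenase that also oxidizes retinol, read 2959.5, 5949.1, 4283.5 and 1501.3 and had been at 6.9 to 73.5. Its stage means from oocyte to 8-cell lay between 41.6 and 58.5, with no gradual rise like that of the keratins, and its difference from the 8-cell stage alone was 5.66. Enpep, the cell-surface glutamyl aminopeptidase, reached 2344 ± 342 (SD, n = 4) from 78.2 ± 28.3 in 8-cell embryos. The other genes of the 12 largest rises ranked in this way were Id2, Epcam, Slc38a4, S100a10, B3gnt5, Slc2a3 and Tmsb4x, with differences of 5.14, 5.13, 5.05, 4.98, 4.95, 4.93 and 4.76. B3gnt5, a transferase that starts lacto-series glycolipid chains, read 1371.3, 1379.5, 1637.8 and 1466.3 and had stayed at 20.8 to 57.5 on every earlier array. Tmsb4x encodes thymosin beta 4, which binds actin monomers.

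A stricter reading of the blastocyst pattern is a level rule. A probe set was taken as restricted to the blastocyst when all 16 earlier arrays were below the pooled median intensity of 48.6 and all 4 blastocyst arrays were above 97.2, 2 times that median. The rule took 44 probe sets, 0.256% of those tested. They carried 43 single gene symbols, which name 40 genes. Because these levels chose the members, their values are a description and carry no test. Low signal on this array is a level and not proof of absence, and detection calls were not used here.

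Most restricted transcripts were modest in level. Their blastocyst means ran from 125 to 2922 with a median of 213.5, and 3 exceeded 500. On the 16 earlier arrays the highest reading belonged to an 8-cell array in 26 of the 44 cases, to a 1-cell array in 7, to a 2-cell array in 7 and to an oocyte in 4. The members next to the lower limit were Glipr1, at 47.6 on its highest earlier array, and Bmyc at 47.3, while Sfmbt2 at 49.6 and Mbp at 50 fell outside. At the upper limit the second probe set of Camk1 was inside with 99.8 on its lowest blastocyst array, and Slc6a14 was outside with 95.5. Of 18 restricted genes with more than 1 tested probe set, 17 had another that did not meet the rule, and the exception was Camk1.

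**Figure D1:**
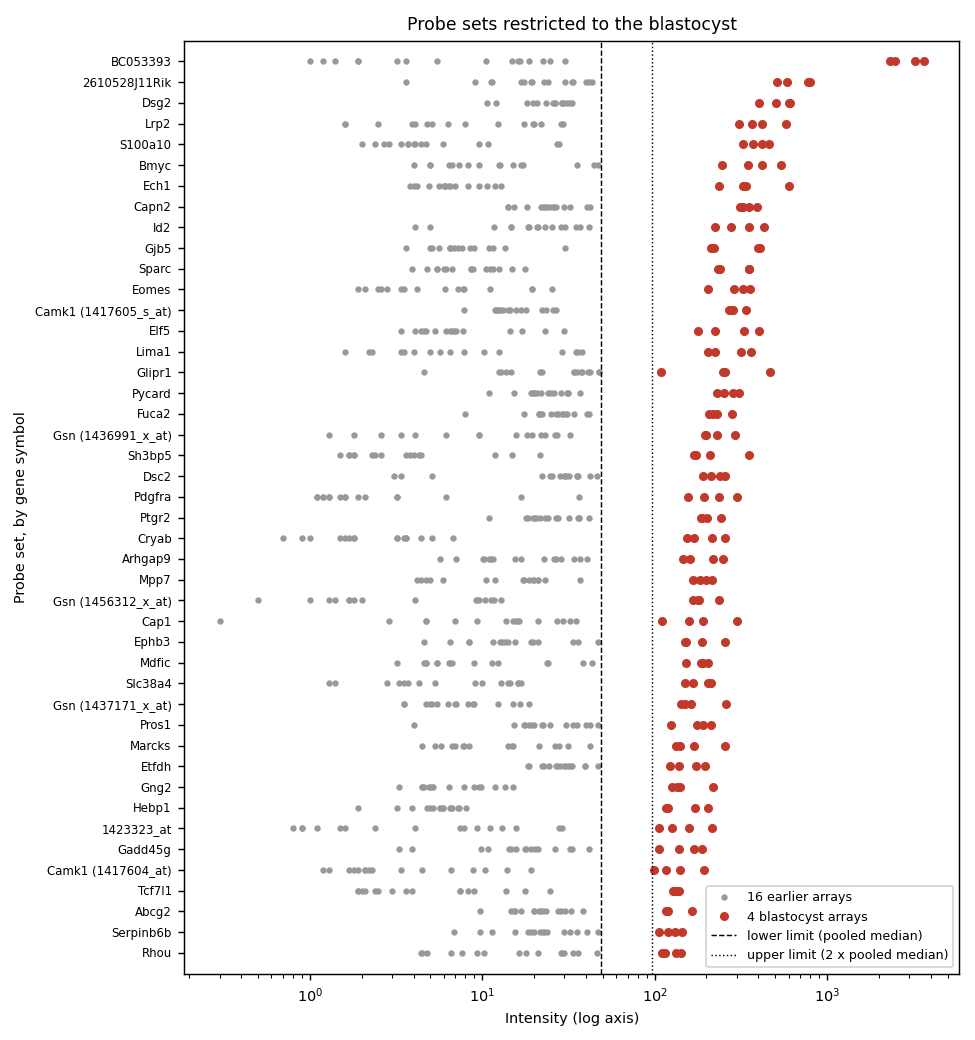
Intensity on a log axis of the 44 probe sets restricted to the blastocyst, 1 row each, ordered by blastocyst mean. Grey points are the 16 earlier arrays and red points the 4 blastocyst arrays. The lines mark the limits of 48.6 and 97.2. BC053393 stands apart at the top with blastocyst arrays of 2327.2 to 3660.9, and the other members lie below 1000.

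BC053393, a gene named only by its clone on chromosome 11, was the brightest member. It read 2327.2, 3223.4, 3660.9 and 2477.9 in blastocysts and 1.0 to 30.2 (median 8.05) on the 16 earlier arrays. Its separation from the earlier arrays, 7.09 on the log2 scale, was larger than that of Krt18. The next were 2610528J11Rik at 669 ± 138 (SD, n = 4) and Dsg2, a desmosomal cadherin, at 530 ± 95.8. A dimmer probe set of S100a10, the annexin A2 partner, followed below Lrp2 at 394 ± 58.2. These 4 probe sets, and the second probe sets of Eomes, Pdgfra and Sparc below, were chosen after their values were seen.

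Regulators and membrane proteins of the trophectoderm were among the restricted genes. Elf5, an ETS factor of trophoblast, read 178.5, 331.8, 223.0 and 404.6 in blastocysts and 3.4 to 30.0 before. Gjb5, a connexin of trophoblast gap junctions, read 219.7, 212.3, 409.6 and 396.0 against 3.6 to 30.1. A second probe set of Eomes, the T-box factor of trophoblast stem cells, read 290.1, 326.1, 204.0 and 355.4 against 1.9 to 25.5. The level rule itself kept the 8-cell arrays of these probe sets below 48.6. The brighter probe set of Eomes, at 80.1 to 140.2 in 8-cell embryos, did not meet it.

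Primitive endoderm was represented as well. Pdgfra, a receptor that marks primitive endoderm, had a restricted probe set at 194.8, 299.6, 156.5 and 238.0, against 1.1 to 36.3 before, with the highest earlier value on an 8-cell array. Its other, brighter probe set did not separate the stages in this way, with 48.7 to 60.9 in blastocysts and 6.0 to 78.4 before. The 2 probe sets of Pdgfra thus disagree on level and size, and both were called higher than the mean of the earlier stages. Sparc, a matrix glycoprotein made by parietal endoderm, had a restricted probe set at 233.6, 354.5, 355.1 and 239.0 against 3.9 to 17.8. Another probe set of Sparc read 102.4 to 191.3 in blastocysts and 72.5 on an 8-cell array, and so did not meet the rule.

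The remaining restricted genes that were named by rule served varied functions. Bmyc, a Myc relative, had a blastocyst mean of 389 ± 124, and Ech1, a peroxisomal and mitochondrial enoyl-CoA isomerase, of 375 ± 156. Capn2, the catalytic subunit of m-calpain, stood at 346 ± 35.2. Camk1, a calmodulin-dependent kinase, stood at 294 ± 30.4. Pycard, the adaptor of inflammasomes, Fuca2, a secreted fucosidase, and Gsn, the actin-severing gelsolin, had means of 270, 233 and 230. Glipr1, Sh3bp5, Ptgr2, Mpp7 and Ephb3 followed at 271, 227, 205, 192 and 187. Glipr1 varied most among the blastocyst arrays of the whole set, from 108.8 to 466.4.

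The mirror set, with all 16 earlier arrays above 97.2 and all 4 blastocyst arrays below 48.6, held 12 probe sets (0.0697% of those tested) and 8 named genes. Klf17, a zinc-finger factor of the cleavage-stage embryo, read 44.5, 42.2, 44.3 and 44.5 in blastocysts and 331.0 to 4154.1 before. Tnfsf13b, the B-cell survival factor BAFF, read 36.7, 12.1, 13.2 and 30.6 against 260.3 to 1186.6. Its loss was late, since the 8-cell arrays still read 364.3 to 462.9. Rimklb, an enzyme that joins glutamate to N-acetylaspartate, fell from an 8-cell mean of 152 to 19.1. Tmem267 and Dmrtb1, a DM-domain factor of spermatogonia, fell from 295 and 199 to 23.4 and 20.1. The other named members were Gdap1, Khdc1b and a probe set of Ldhb, described with the losses.

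Promoter sequences are shown for BC053393, the brightest restricted gene, for Gjb5 and Elf5, restricted genes of trophoblast, and for the 2 keratins. They run from 250 bases before to 50 after the annotated start in RefSeq (GRCm38.p6), written 5′ to 3′ on the strand of the gene, and capitals mark the palindrome GCCNNNGGC bound by TFAP2 factors. The probe sets do not test these sites.
BC053393 (chr11:46571263-46571562, plus strand): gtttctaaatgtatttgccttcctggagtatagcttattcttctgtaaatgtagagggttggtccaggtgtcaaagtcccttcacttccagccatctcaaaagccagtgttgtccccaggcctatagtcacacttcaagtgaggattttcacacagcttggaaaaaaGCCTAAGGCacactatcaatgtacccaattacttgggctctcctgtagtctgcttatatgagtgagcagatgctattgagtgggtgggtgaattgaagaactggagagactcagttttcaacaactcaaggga
Gjb5 (chr4:127358115-127358414, minus strand): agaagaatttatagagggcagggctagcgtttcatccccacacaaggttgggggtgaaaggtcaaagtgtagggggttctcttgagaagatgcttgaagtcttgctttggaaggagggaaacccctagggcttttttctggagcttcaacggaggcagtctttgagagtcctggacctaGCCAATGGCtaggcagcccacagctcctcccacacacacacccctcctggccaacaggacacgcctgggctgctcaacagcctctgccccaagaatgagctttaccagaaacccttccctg
Elf5 (chr2:103411848-103412147, plus strand): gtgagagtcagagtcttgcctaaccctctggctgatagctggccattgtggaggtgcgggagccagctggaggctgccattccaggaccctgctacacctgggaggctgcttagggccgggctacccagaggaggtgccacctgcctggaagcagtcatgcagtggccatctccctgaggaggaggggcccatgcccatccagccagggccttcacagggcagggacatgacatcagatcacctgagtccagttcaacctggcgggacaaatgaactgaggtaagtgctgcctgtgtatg
Krt18 (chr15:102027966-102028265, plus strand): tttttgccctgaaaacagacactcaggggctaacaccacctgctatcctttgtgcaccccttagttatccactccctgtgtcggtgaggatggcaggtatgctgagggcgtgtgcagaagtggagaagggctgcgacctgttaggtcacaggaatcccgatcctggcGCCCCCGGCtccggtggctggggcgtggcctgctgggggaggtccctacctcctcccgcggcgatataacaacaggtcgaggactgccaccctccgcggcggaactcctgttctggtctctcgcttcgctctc
Krt8 (chr15:102004293-102004592, minus strand): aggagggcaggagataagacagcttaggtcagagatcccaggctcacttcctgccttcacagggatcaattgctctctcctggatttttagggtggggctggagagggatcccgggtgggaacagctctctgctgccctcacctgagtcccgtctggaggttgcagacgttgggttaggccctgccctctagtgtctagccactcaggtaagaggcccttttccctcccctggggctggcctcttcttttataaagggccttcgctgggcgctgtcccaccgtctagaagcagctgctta
The palindrome began 83 bases before the start in BC053393 and Krt18 and 71 bases before it in Gjb5, and these letters were not in the Krt8 and Elf5 windows. The table holds a second promoter for Elf5, which is not shown. Of the 692 genes higher than every earlier stage that had a promoter in the table, 25.9% held the palindrome, against 25.1% of 693 lower genes and 24.3% of all 8275. The TEAD letters GGAATG, read on both strands, were in 13.7% of the higher, 10.4% of the lower and 12.3% of all promoters. The GC-box letters GGGCGG were in 68.4%, 61.0% and 61.3%. The GATA letters AGATAA were in 6.36%, 8.51% and 7.01%, the TATA letters TATAAA in 6.36%, 8.95% and 8.65%, and the letters CCAAT in 36.7%, 37.1% and 37.8%. Median GC content was 61.0%, 60.7% and 60.3%. These shares are descriptions and were not tested.

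Transcription factors of the trophectoderm rose as a group in most members. Of 24 tested, 16 were higher than the mean of the earlier stages and 2 lower, Yap1 and Id1, against 26.3% and 37.9% of all genes. Among them 10, or 41.7%, were higher than every earlier stage, against 8.35% of all genes. The median difference was 0.98, and that of all genes −0.25. Cdx2, the homeobox factor that defines trophectoderm, read 427.5, 473.7, 515.5 and 379.4 in blastocysts, 27.0 to 226.3 in 8-cell embryos and at most 15.3 earlier. Its 8-cell mean of 131 ± 84.1 (SD, n = 4) lay between both levels, and the blastocyst exceeded it by 1.95 (adjusted p = 3.02e-05).

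The factors differed in how much of their rise fell after the 8-cell stage. Eomes, at 724.4, 852.8, 1137.6 and 1006.8 on its brighter probe set, had been at 48.2 to 140.2 on every earlier array, and gained 2.80 over the 8-cell stage. Id2, an inhibitor of basic helix-loop-helix factors, read 1078.0, 1863.3, 802.2 and 1194.9 and gained 4.82. Elf5 gained 3.93. In contrast, Tfap2c and Tead4, factors that act upstream of Cdx2, had peaked before. Tfap2c had a mean of 440 ± 107 in blastocysts and 854 ± 234 in 8-cell embryos, a difference of −0.94 (adjusted p = 0.00148), and its small excess over the mean of the earlier stages, 0.48, was lost without blastocyst array 1, 2 or 3. Tead4 fell from 372 ± 47.4 to 96.2 ± 35.5, a difference of −1.87 (adjusted p = 5.58e-07), while staying above the oocyte mean of 5.63.

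Gata3, a zinc-finger factor of trophectoderm, followed a different course. It read 182.0, 207.6, 320.4 and 218.8 in blastocysts, had a mean of 13.5 ± 15.7 in 8-cell embryos and had been at 138 ± 31.8 in 1-cell embryos. All 4 blastocyst arrays were above the highest earlier array, 167.8, but the test against the 1-cell stage did not pass, so Gata3 is not among the 10. Yap1, the coactivator of TEAD factors, was lower than the mean of the earlier stages by 1.85 and did not pass the test against the 8-cell stage, with means of 802 and 847. Id1, close to background, was lower by 0.60 and lost that call under each of the 3 other scalings.

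**Figure D2:**
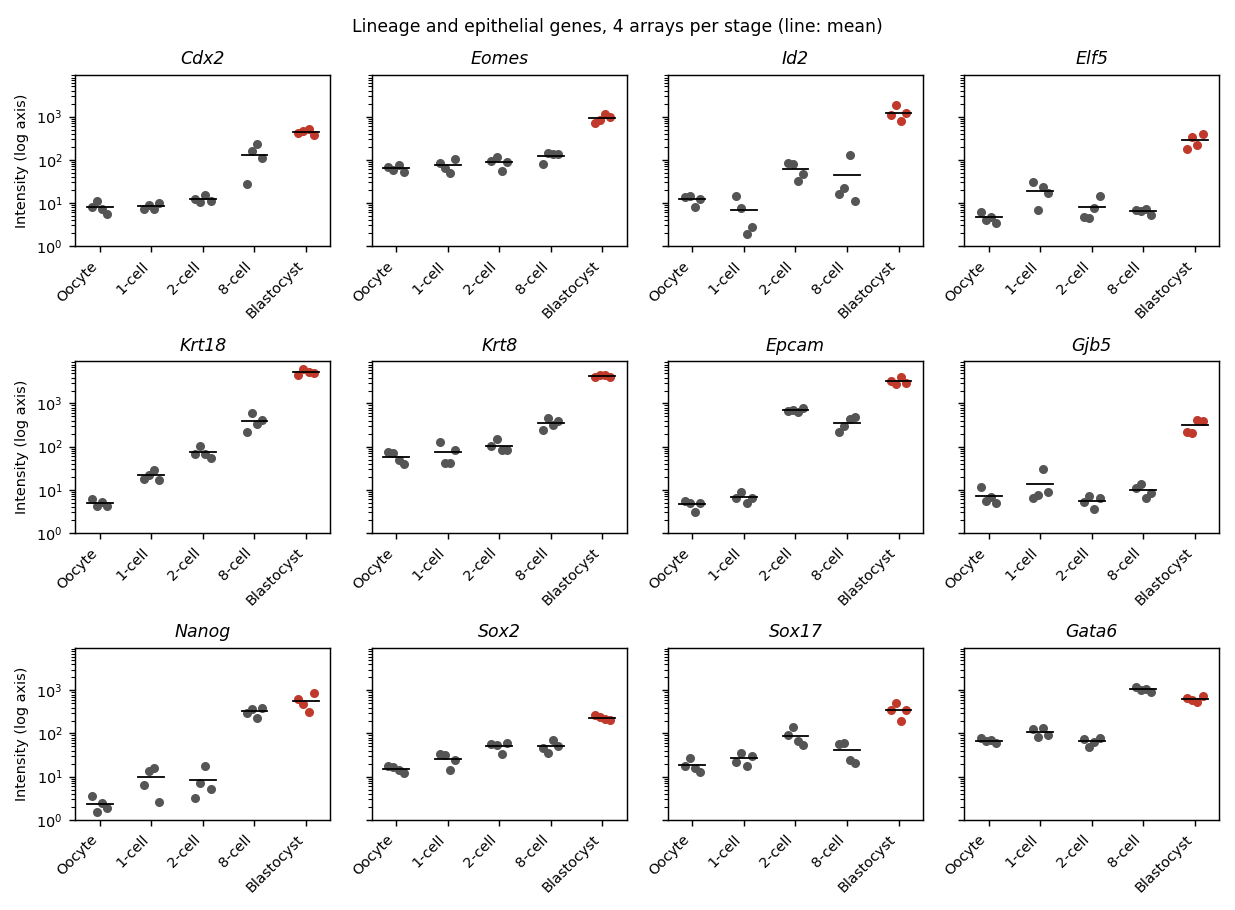
Intensity on a log axis for 12 lineage and epithelial genes by stage, with 4 arrays per stage as points and their mean as a line, blastocyst in red. Elf5, Gjb5, Eomes and Id2 jump after the 8-cell stage, Cdx2, Krt8, Krt18 and Nanog are already raised in 8-cell embryos, and Gata6 is higher at the 8-cell stage (1055) than in the blastocyst (630).

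Keratins and their cytoskeletal partners had the largest share of members higher than every earlier stage among the 29 lists examined on the authors' scaling, while after median centring oxidative phosphorylation, with 33 of 57, exceeded their 15 of 27. Of 27 tested, 15 (55.6%) were higher than every earlier stage and none lower, with a median difference of 2.04. Krt7, a further simple-epithelial keratin, read 85.0, 161.5, 97.3 and 214.2 against 3.2 to 55.4. Dsc2, a desmosomal cadherin, read 257.8, 239.4, 189.8 and 212.3 against 3.1 to 46.4. Gsn rose by 3.31 with all 5 of its probe sets in the same direction. Actb, the cytoplasmic actin, reached 7956 ± 1285 from 3858 ± 1370 in 8-cell embryos, a difference of 1.09 (adjusted p = 5.22e-05). Its 2 probe sets did not both give the call, and the ratio of its control probe sets also differed between blastocysts and earlier stages, so the size of its rise is uncertain. Vil1, villin of microvilli, went the other way and had already been lost by the 8-cell stage, with 404 to 598 in the first 3 stages, 10.6 in 8-cell embryos and 1.88 in blastocysts.

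Junction and polarity genes moved in both directions. Of 28, 15 were higher than the mean of the earlier stages and 5 lower, and 8 (28.6%) were higher than every earlier stage. The 5 lower were the polarity genes Crb3 and Mpp5, the claudin Cldn10 and the connexins Gjb2 and Gjc1, and the calls of all but Crb3 were lost under scaling to the hybridization controls. Epcam, the epithelial adhesion molecule, read 3280.8, 2847.2, 4217.0 and 2988.5, against 219.2 to 481.5 in 8-cell embryos. It had been higher in 2-cell embryos, at 692 ± 69.6, and was at 4.60 ± 1.02 in oocytes. Gjb5, whose promoter is printed above, gained 3.82 over the 8-cell stage. Mpp7, a membrane-associated guanylate kinase, was restricted to the blastocyst, from 167.4 to 215.9.

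The pump and transport list gave 16 higher and 5 lower of 30, with 10 (33.3%) higher than every earlier stage and 1 lower. Atp1b1 and Atp1b3, 2 beta subunits of the sodium pump, moved in opposite directions. Atp1b1, the subunit paired with the alpha 1 chain of trophectoderm, read 1330.5, 1573.7, 1783.3 and 1080.9 against 190.8 to 385.4 on all earlier arrays, and 4 of its 5 probe sets gave the call. Atp1b3 read 591.4, 480.3, 772.7 and 599.4 against 842.1 to 2727.2, a difference of −1.14 (adjusted p = 8.57e-07). Neither subunit overlapped between blastocyst and earlier arrays.

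The 3 water channels tested took different courses. Aqp3, an aquaglyceroporin, was at 344 ± 64.8 in blastocysts and 304 ± 43.5 in 8-cell embryos, which did not pass the test (adjusted p = 0.602), so its excess over the mean of the earlier stages came with the 8-cell stage. Aqp8 read 210.4, 363.3, 345.6 and 109.0 against 8.0 to 100.5 on all earlier arrays and gained 1.97 over the 8-cell stage (adjusted p = 8.22e-05). Aqp9, at 349 ± 175, was lower than in 8-cell embryos by 1.51 (adjusted p = 0.00013). Both were named after their values were seen. Slc2a3, the glucose transporter GLUT3 of the trophectoderm, read 3294.8, 4004.5, 3907.8 and 3484.1, against 302.2 to 536.9 in 8-cell embryos and 24.9 at the lowest. Of its 3 probe sets 2 gave the call, and their differences from the mean of the earlier stages ran from −0.21 to 5.31 over all 3. Slc38a4, an imprinted amino acid transporter, read 535.3, 470.0, 754.2 and 1015.9 against 1.0 to 100.

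Pluripotency genes of the inner cell mass moved in both directions after the 8-cell stage. Of 26, 15 were higher than the mean of the earlier stages and 2 lower, and 8 (30.8%) were higher than every earlier stage. Against the 8-cell stage alone 9 were higher and 10 lower, with a median of −0.04, where 20% and 26.4% of all genes were. Under scaling to the hybridization controls the same counts were 13 and 3, with a median of 0.82. Of all 10257 genes 4505 were higher and 235 lower than the 8-cell stage under that scaling, with a median of 0.62. Nanog, the homeobox factor of the epiblast, read 635.9, 472.9, 319.8 and 857.4, against 233.8 to 392.2 in 8-cell embryos, so the groups overlap. Its gain over the 8-cell stage was 0.73 (adjusted p = 0.0339). Sox2, the partner of Oct4, read 263.8, 240.0, 222.1 and 204.0 against 12.3 to 69.7 on all earlier arrays and did not overlap.

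Pou5f1, which encodes Oct4, did not differ beyond the spread between blastocysts at 636 ± 96.5 and 8-cell embryos at 633 ± 85.2 (difference 0.0027, adjusted p = 0.993). Tdgf1, the Nodal coreceptor Cripto, rose to 792 ± 268 from 253 ± 110, and Tfcp2l1, a factor of naive pluripotency, to 676 ± 156 from 173 ± 91.1. Dppa3, a maternal factor that guards DNA methylation, fell to 2257 ± 398 from stage means of 3625 to 5661. Fgf4, the ligand made by the epiblast, was read on its brightest probe set as lower than every earlier stage by 0.86, at 51.4 to 115.2 against 102.3 to 232.9. Only 1 of the 3 probe sets of Fgf4 gave that call, and it was lost under scaling to the hybridization controls. The differences of the 3 probe sets from the mean of the earlier stages ran from −0.86 to 1.99, so they disagree on direction.

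Primitive endoderm genes rose in 13 of 24 and fell in 4, with 9 (37.5%) higher than every earlier stage and 1 lower. Sox17, an endoderm factor, read 351.0, 521.0, 199.1 and 343.1 against 13.1 to 139.4, although only 1 of its 2 probe sets gave the call. Lrp2, the endocytic receptor megalin, read 1255.1, 644.2, 1019.6 and 613.1 against 2.6 to 128.1. Apoe, a lipid carrier secreted by endoderm, read 123.0, 309.3, 378.3 and 542.5 against 4.7 to 118.4. The early factor Gata6 was lower in blastocysts, at 630 ± 90.4, than in 8-cell embryos, at 1055 ± 118, by 0.74 (adjusted p = 0.00173). The arrays of both stages did not overlap, at 537.7 to 745.1 and 915.6 to 1194.5. Gata4, a later endoderm factor, was the member lower than every earlier stage, at 50.6 ± 9.84 against 65.6 to 144.0, and that call was lost under scaling to the hybridization controls.

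Secreted factors and receptors that act around implantation gave 20 higher and 9 lower of 42, with 14 (33.3%) higher than every earlier stage. Lgals1, the secreted lectin galectin 1, read 1518.3, 2239.1, 1557.5 and 2342.5 against 12.8 to 144.4. The 2 syndecans of the list, heparan sulfate proteoglycans of the cell surface, moved apart. Sdc4 reached 2522 ± 649 from 246 ± 97.1 in 8-cell embryos, while Sdc1 fell to 23.7 ± 9.28 and was lower than every earlier stage by 2.87. The other member lower than every stage was Bmpr2, a bone morphogenetic protein receptor, by 1.70. Wfdc2, a secreted protease inhibitor of epithelia, read 234.4, 320.8, 276.4 and 379.9 against 6.6 to 102.9.

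Among 29 proteases and inhibitors, 15 were higher and 6 lower than the mean of the earlier stages, and 8 (27.6%) were higher than every stage. Enpep led them at 5.78. Serpinb6a, an intracellular serpin, read 1841.9, 1746.7, 1822.0 and 1698.1 against 30.6 to 365.4. Capn2 is described with the restricted genes. Plat, the tissue plasminogen activator, was a maternal transcript with 4157 ± 129 in oocytes and was no longer different between 8-cell embryos at 76.6 and blastocysts at 96.0 by the test (adjusted p = 0.184).

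Placental and imprinted genes as a list did not stand above the background. Of 25, 7 were higher and 8 lower, and the 3 (12%) higher than every earlier stage were Slc38a4, Sfmbt2 and Plac1. Sfmbt2, an imprinted Polycomb-group gene needed for the placenta, read 376.4, 426.2, 356.7 and 468.9 against 9.0 to 49.6, and missed the level rule by its highest 8-cell array. Plac1, a trophoblast gene of the X chromosome, rose by 1.06. Plac8 and Mest, which is paternally expressed, were lower than the mean of the earlier stages by 3.37 and 2.31. Neither passed the test against the 8-cell stage, with adjusted p of 0.929 and 0.783.

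Of 42 genes of lipid binding, transport and synthesis, 24 were higher and 9 lower, with 12 (28.6%) higher than every earlier stage. Fabp3 led, and Acadvl, the first enzyme of long-chain fatty acid oxidation in mitochondria, reached 636 ± 119 from 116 ± 36.2 in 8-cell embryos. Acsl4, which activates arachidonic acid, was the member lower than every earlier stage. It read 4.3, 10.3, 24.3 and 16.7 in blastocysts and 302.7, 347.7, 336.5 and 533.6 in 8-cell embryos, a late fall of 3.94 on the log2 scale with all 3 probe sets in agreement on direction. Cd36, a fatty acid translocase, had already gone by the 8-cell stage, with a mean of 2.18 there.

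Cholesterol synthesis gave 9 higher and 4 lower of 19, with Pmvk and Mvk, the mevalonate kinases of the pathway, higher than every earlier stage (10.5%) by 3.33 and 1.53. Of all genes 8.35% were higher than every earlier stage, so that share was near the background. Fdft1, squalene synthase, was lower than every stage, at 285 ± 47.0 against 378.9 to 3824.6. Glycolysis gave 14 higher and 4 lower of 21, and 3 (14.3%) were higher than every stage. These were Hk2, the first kinase of the pathway, Aldoa, an aldolase, and Tpi1, triosephosphate isomerase, by 3.50, 2.34 and 1.73. The lactate dehydrogenase subunit Ldhb went from 6692 ± 700 in oocytes to 343 ± 131 in 8-cell embryos and 123 ± 34.9 in blastocysts, in all 4 of its probe sets.

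The respiratory chain and the ribosome parted at the blastocyst. Both lists were far above the mean of the earlier stages, with 55 of 57 oxidative phosphorylation genes higher (median 1.54) and 40 of 43 cytosolic ribosomal protein genes higher (median 1.77). Against the 8-cell stage, 42 of the 57 respiratory genes were higher and 0 were lower, with a median of 0.94, where 20% of all genes were higher. Of the 43 ribosomal genes 0 were higher and 24 lower than the 8-cell stage, with a median of −0.55, where 26.4% of all genes were lower. At an unadjusted p under 0.05 the counts of respiratory genes lower and of ribosomal genes higher than the 8-cell stage were 0 as well. In all, 30 respiratory genes (52.6%) and 0 ribosomal genes were higher than every earlier stage. The respiratory result held under each scaling, with 42 to 56 genes higher than the 8-cell stage. The ribosomal one did not, since 5 genes were lower after quantile normalization, 7 after median centring, and 16 were higher after scaling to the hybridization controls. Of all 10257 genes, 2256 were lower than the 8-cell stage after quantile normalization and 1521 after median centring. Under scaling to the hybridization controls 4505 of all genes were higher, with a median of 0.62 against 0.49 for the ribosomal genes.

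Single members show both courses. Cyc1, cytochrome c1 of complex III, read 2783.2, 2892.5, 2978.5 and 2469.0 in blastocysts against 705.5 to 998.3 in 8-cell embryos. Ndufa5, a subunit of complex I, read 1326.4, 1519.1, 1303.2 and 949.2 against 403.5 to 539.3. Neither overlapped with any earlier array. Rpl8 and Rpl22, proteins of the large ribosomal subunit, had means of 5248 ± 645 and 3452 ± 1327 in blastocysts and 5722 ± 527 and 4036 ± 1150 in 8-cell embryos, and neither difference passed the test.

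**Figure D3:**
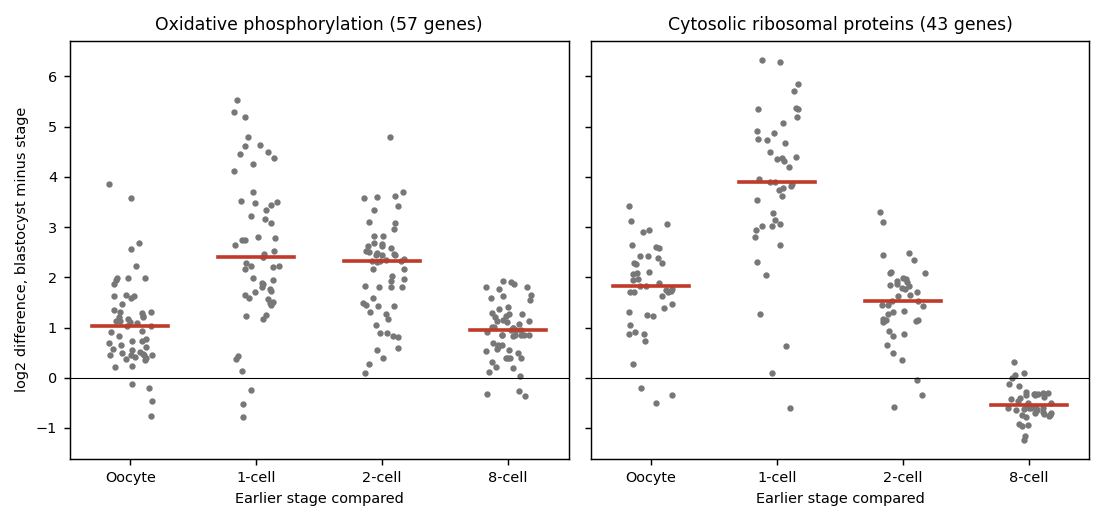
Difference on the log2 scale between the blastocyst and each earlier stage for 57 oxidative phosphorylation genes and 43 cytosolic ribosomal protein genes, 1 point per gene, with the median as a red line. The medians against the 8-cell stage are 0.94 and −0.55 on the authors' scaling, and the ribosomal median turns positive (0.49) when arrays are scaled to the hybridization controls. The median of all genes against the 8-cell stage is 0.62 under that scaling, above the ribosomal one.

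Redox and detoxification enzymes rose in 20 of 31 and fell in 4, with 8 (25.8%) higher than every earlier stage. Akr1b8, an aldo-keto reductase, read 5153.3, 4932.0, 4095.0 and 3750.2 against 92.9 to 466.1, and with Adh1 formed the top of the list. Lysosome and endocytosis genes gave 25 higher and 6 lower of 37, and 8 (21.6%) higher than every stage. Hexa, a subunit of the lysosomal hexosaminidase, reached 1643 ± 432 from 444 ± 80.5, while Ctsh, the protease cathepsin H, fell to 49.0 ± 22.4 from 266 ± 86.9. Extracellular matrix and integrin genes gave 12 higher and 6 lower of 27, with 7 (25.9%) higher than every stage and Sdc1 lower.

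Iron handling was the shortest pathway list, with 3 (33.3%) higher and 4 (44.4%) lower of 9. None was higher than every earlier stage, and Slc11a2, an iron importer, was lower than every one. Over all genes the shares higher and lower than the mean of the earlier stages were 26.3% and 37.9%. Of 26 p53 targets and apoptosis genes 8 (30.8%) were higher and 11 (42.3%) lower, which is near the shares over all genes. Those higher than every stage (15.4%) were Gadd45g, a growth arrest gene, by 2.44, Perp, a desmosome component, by 2.36, Pmaip1, the killer protein Noxa, by 1.76, and Ccng1, a cyclin, by 0.92. Those lower than every stage were the apoptosis regulators Trp53inp1, Bcl2 and Bcl2l11, by 1.66, 1.56 and 1.15. The medians of both lists, −0.13 and −0.22, turned positive under at least 1 other scaling. The median of all genes did so too, to 0.15 under scaling to the hybridization controls.

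Replication and mitosis genes did not move together. DNA replication genes were higher in 20 of 38 and lower in 7, and the 5 (13.2%) higher than every earlier stage were Rrm1, the large ribonucleotide reductase subunit, the clamp loader subunits Rfc2 and Rfc4, the ligase Lig1 and the helicase subunit Mcm3. Over all genes the share higher than every earlier stage was 8.35%. Rrm1 read 1024.5, 1033.8, 1324.8 and 1375.1 against 125.3 to 525.9. Genes of M phase were higher in 4 of 38 and lower in 24, with 6 (15.8%) lower than every stage, where 8.43% of all genes were. Aurkc, the aurora kinase of meiosis and early cleavage, read 77.2, 80.3, 84.9 and 98.0 against 668.4 to 2479.2 and fell by 3.19 from the 8-cell stage alone. Ttk, a spindle checkpoint kinase, had reached its low level by the 8-cell stage (101 against 105 in blastocysts), and Smc2, a condensin subunit, was the M phase gene higher than every stage. Under scaling to the hybridization controls the M phase count became 9 higher and 9 lower of 38, while 3495 of all 10257 genes were higher and 1808 lower.

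Chromatin genes were near the background, with 9 higher and 13 lower of 33. Dnmt3b, a de novo DNA methyltransferase, read 1550.6, 1926.8, 1160.9 and 1953.3 against 132.8 to 568.6, and it and the deacetylase Hdac2 (by 0.81) were higher than every earlier stage (6.06%). Those lower than every stage were the Polycomb genes Bmi1 and Ezh2 and the heterochromatin gene Cbx3, by 2.75, 1.77 and 0.73. For Bmi1 most of this had occurred before the blastocyst, with 3949 ± 426 in 2-cell embryos, 381 ± 53.7 in 8-cell embryos and 276 ± 101 in blastocysts.

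Transcripts of the oocyte were lower in all but 1 of the members tested. Of 28 oocyte-specific and maternal-effect genes, 27 were lower than the mean of the earlier stages and 18 (64.3%) were lower than every one, against 8.43% of all genes, with a median difference of −3.96. Btg4, an adaptor for maternal mRNA decay, read 3.6, 22.1, 10.6 and 2.9 in blastocysts, 52.5 to 110.2 in 8-cell embryos and up to 12384.4 before, a difference of −6.88 ± 0.19. Oosp1, a secreted oocyte protein, read 33.9, 37.5, 25 and 36.8 against 86.8 to 14969.4. Nlrp5, a component of the subcortical maternal complex, read 2.3, 7.2, 5.4 and 3.4 against 46.8 to 5665.7.

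Against the 8-cell stage alone 18 of the 28 were lower and 7 were not called. The 3 that were higher were Tcl1, Spin1 and the maintenance methyltransferase Dnmt1, by 0.57, 0.61 and 0.68. The other genes of the 10 largest falls were Omt2b, Bcl2l10, Obox2, Gdap1, Khdc1b, Pramel25 and Rspo2, with differences of −6.14, −6.00, −5.84, −5.81, −5.65, −5.64 and −5.55. Bcl2l10 is an oocyte member of the Bcl2 family, Obox2 an oocyte homeobox gene and Rspo2 a Wnt agonist. Their 8-cell means lay between 27.7 for Pramel25 and 422 for Khdc1b, and their blastocyst means between 1.83 and 41.1. The median of the list against the 8-cell stage alone was −0.95, and under scaling to the hybridization controls it was −0.07 with 6 genes lower and 4 higher. Over all 10257 genes that scaling gave 235 lower and 4505 higher than the 8-cell stage, with a median of 0.62.

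The list of genes tied to 2-cell activation held 10 of 15 lower and 4 higher. Not all its members were silent before, since Klf17 and Arg2 had oocyte means of 1379 and 1424. Klf17 and Arg2, a mitochondrial arginase, were lower than every earlier stage with Hspa1a, a heat shock protein, Obox3 and Sp110, which makes 5 of 15 (33.3%). Arg2 fell from 1424 ± 222 in oocytes through 39.2 ± 7.85 in 8-cell embryos to 22.3 ± 7.78. Pramel6 and Pramel7, members of the Prame family, were the largest risers of the list against the mean of the earlier stages, by 3.90 and 3.27. Pramel6 did not pass the test against the 8-cell stage (difference −0.20, adjusted p = 0.484). Pramel7 stood at 2345 ± 185 in blastocysts and 4883 ± 383 in 8-cell embryos, a difference of −1.05 (adjusted p = 2.47e-06).

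**Figure D4:**
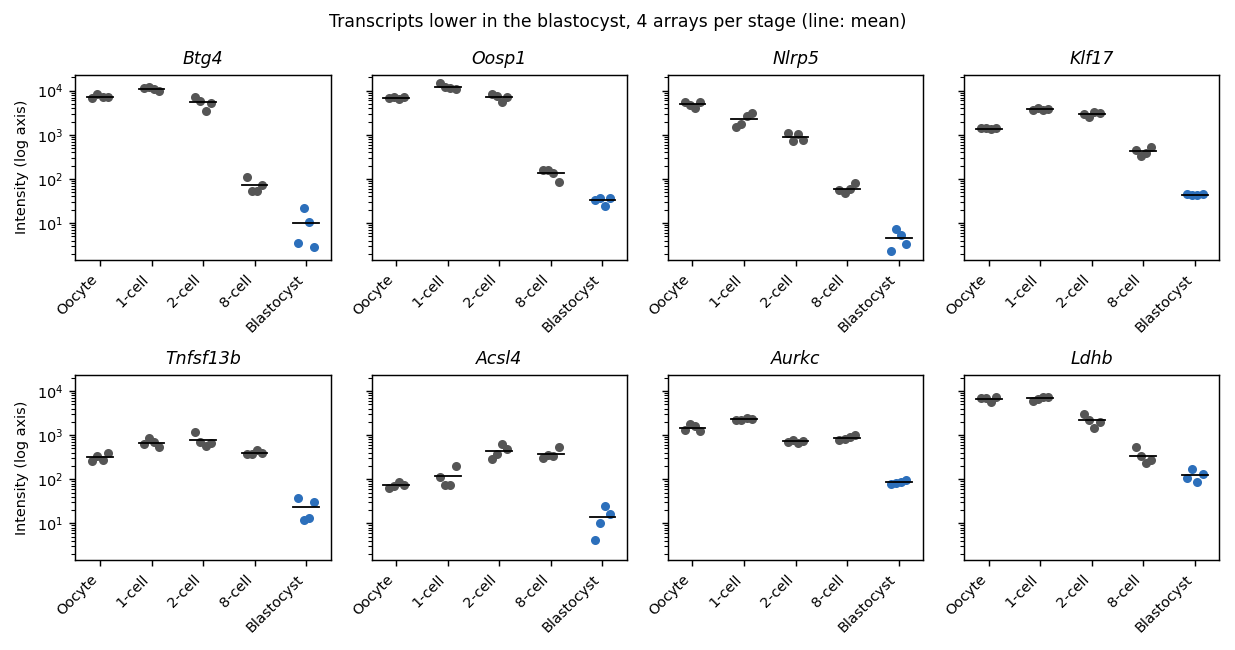
Intensity on a log axis for 8 transcripts that were lower in the blastocyst than in every earlier stage, with 4 arrays per stage as points and their mean as a line, blastocyst in blue. Btg4, Oosp1, Nlrp5 and Ldhb fall mostly before the 8-cell stage, and Tnfsf13b, Acsl4 and Aurkc fall after it.

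**Figure D5:**
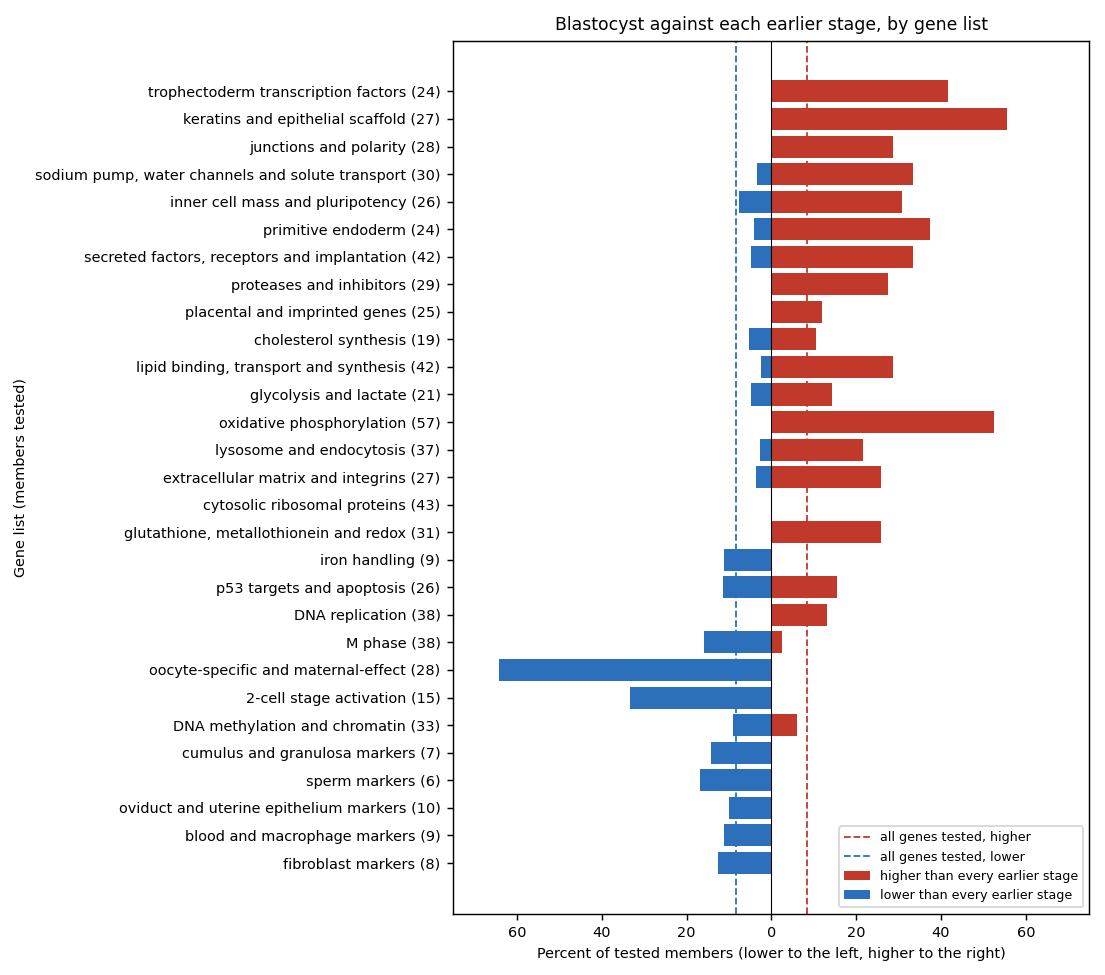
Share of the tested members of each gene list that was higher (red, to the right) or lower (blue, to the left) than every earlier stage, in percent, with the number tested in brackets. Dashed lines give the same shares over all 10257 genes, 8.35% and 8.43%. The lists of keratins with epithelial scaffold genes and of oxidative phosphorylation exceed 50% to the right and that of oocyte genes 60% to the left.

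Markers of cells that could accompany embryos did not rise. Of the tested members of 5 lists, 0 of 7 cumulus, 0 of 6 sperm, 0 of 10 oviduct and uterine, 0 of 9 blood and 0 of 8 fibroblast markers were higher than the mean of the earlier stages by limma's test, and 4, 2, 6, 2 and 3 were lower. Over all genes 26.3% were higher and 37.9% lower. The array held 13, 13, 13, 12 and 11 genes of these lists, and those not tested did not pass the filter. At an unadjusted p under 0.05 the count of higher members was also 0 in each of the 5 lists. Under the other scalings at most 1 member of a list was higher, in the cumulus, blood, sperm and fibroblast lists. The summed intensity of the 13 oviduct and uterine markers was 217 to 306.5 on the blastocyst arrays, and 8 of the 13 were below 32.9 on all 4. On the earlier arrays the sum was 309.1 to 1457.8 except on 1 array of the 8-cell stage, where it was 4392.7. That array carried Ovgp1, the oviductal glycoprotein, at 3105.4, while the other 8-cell arrays read 46.5 to 193.5 and the blastocysts 24.4 to 56.5. The blood list summed to 392.8 to 624.7 in blastocysts and 480.1 to 1247.0 before, the cumulus list to 288.1 to 533.6 and 369.0 to 945.1, the fibroblast list to 242.5 to 402.6 and 299.4 to 650.1, and the sperm list to 140.1 to 227.9 and 191.6 to 538.3.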

How the data were processed

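Total RNA of mouse oocytes and embryos of 4 later stages was amplified by 2 rounds of in vitro transcription and read on 20 arrays of type MOE430A, per the labels. The values deposited by the authors are a linear intensity per probe set. When 2% of values were trimmed at each end, the mean was 150.05 to 150.08 on every array. Neither the scanning software nor a background step or detection call is stated by the labels or the headers. No 2 arrays held identical values. The number of arrays limits the precision, and no depth applies.

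Stages were taken from the titles. Removing 64 controls from the 22690 probe sets left 22626. GEO's platform annotation gives 1 gene symbol for 20380 of these, several for 691 and none for 1555. Tests ran on log2(intensity + 12.15), with a constant of 0.25 times the pooled median of 48.6. A probe set was tested if 4 or more arrays exceeded 32.9 (the 40th percentile over all values), which 17208 did. limma 3.58.1 in R 4.3.3 fitted a mean per stage, with an intensity trend in the spread, and contrasted the blastocyst with the equal-weight mean of the earlier stages and with each of them, with Benjamini-Hochberg adjustment over all probe sets tested. For gene counts each gene was read from its brightest probe set by mean log2 intensity. In data simulated for the equal-weight comparison with 17208 probe sets, 13.4% of planted changes of 0.5, 74.6% of 1 and 100% of 2 on the log2 scale were found, with 3 false calls. The simulation planted 67, 67 and 66 changes of these sizes and no other stage difference. In the real comparison 10940 probe sets were called, so the cutoff of the adjustment was less strict there and these rates do not carry over to it.

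The members and the 29 gene lists were chosen with earlier results of these data known. Clone-like names aside, and with each gene read on its brightest probe set, the text names the 12 largest rises and 10 largest falls among genes past the test against every stage with no overlapping array, the 2 strongest risen and fallen members of each list, a set of lineage markers, the 15 brightest genes whose brightest probe set was restricted and up to 10 of the mirror set, leaving some out for length. Clone-like names, dimmer probe sets and members of a list outside this rule (among them Aqp8, Aqp9, Cldn10, Gjb2, Gjc1, Tcl1, Spin1, Dnmt1, Tpi1, Plac1, Mvk, Ccng1, Pmaip1, Bcl2l11, Mcm3, Rfc2, Lig1, Hdac2, Ezh2, Cbx3, Hspa1a, Obox3, Sp110 and Bmpr2) were named after their values were seen. Among same-numbered arrays of different stages, 6 of 40 pairs correlated above 0.1 in their deviations, against 11 of 120 pairs with different numbers. The median correlations were 0.016 and −0.012, and the main fit used no pairing. Alternatives were other scalings, pseudocounts, filters, variance settings, array weights, 1 pooled earlier group, the replicate number as a block and leaving out each array.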

Additional observations from a re-analysis of the deposited data

Results flagged for a closer look

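Within the groups of 4 arrays, 43 of 720 gene and stage combinations (5.97%) among the 144 probe sets examined held 1 array far from the other 3 on the log2 scale. Chance gives about 1 in 20, so the count as a whole is near that share. The cause was not tested for any of them.

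In blastocysts, Tmsb4x read 4743.1 on 1 array and 2086.2 to 2200.9 on the others. Sdc1 read 37.5 against 18 to 20.5. Low blastocyst arrays were found for Dppa3 at 1664.2 (others 2393.2 to 2516.9), Dmrtb1 at 8.9 (21.8 to 25), Cbx3 at 25.1 (38.0 to 40.3), Spin1 at 259.0 (616.6 to 691.0) and Klf17 at 42.2 (44.3 to 44.5). In each case but that of Spin1, whose low array lay within the range of the 8-cell arrays, the odd array lay on the same side of all earlier arrays as the other 3.

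In 8-cell embryos, 1 array was high for Tdgf1 at 418.7 (others 192.5 to 208.4), Aqp9 at 1657.1 (717.2 to 789.6), Aqp8 at 69.3 (42.8 to 46.4), Gata3 at 37.0 (4.3 to 7.2), Dsc2 at 35.4 (3.1 to 5.1), Vil1 at 31.4 (2.7 to 5.1) and the dimmer Eomes probe set at 25.5 (6.1 to 7.8). It was low for Rpl8 at 4937.7 (5930.6 to 6075.7), Khdc1b at 247.1 (451.7 to 500) and the brighter Eomes probe set at 80.1 (138.1 to 140.2).

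In 2-cell embryos, high arrays were Yap1 at 4258.6 (3904.9 to 3937.9), Aldoa at 253.1 (198.4 to 203.7), Ccng1 at 206.9 (121.2 to 132.2), Aqp8 at 57.8 (36.2 to 37.6) and Bmyc at 44.8 (4.0 to 7.3). Low ones were Hk2 at 83.8 (95.1 to 96.4), Sox2 at 33.1 (54.9 to 59.5), Gjb2 at 24.7 (47.5 to 50.7), Adh1 at 6.9 (47.2 to 58.3) and Mpp7 at 5.0 (17.2 to 18.8). In 1-cell embryos, Acadvl read 36.4 (4.0 to 7.3), Glipr1 33.9 (12.5 to 13.8), Gjb5 30.1 (6.5 to 9.0) and Camk1 22.3 (11.9 to 13.3), all high.

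In oocytes, Fdft1 read 3824.6 (2919.8 to 2977.5), Yap1 3817.9 (3289.3 to 3369.4), Plac8 3550.6 (2750.0 to 2869.1), Rimklb 309.2 (184.8 to 200.4), Pmvk 40.5 (4.5 to 5.5) and Tfcp2l1 12.5 (2.0 to 3.3) on a high array. Low arrays were Klf17 at 1337.1 (1390.1 to 1397.2), Ovgp1 at 18.9 (67.8 to 79.0), Id1 at 9.9 (35.1 to 40.3), Bmyc at 5.0 (15.1 to 17.3), S100a10 at 2.0 (3.7 to 4.0) and Pmaip1 at 1.1 (1.8 to 1.9).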

How the results depend on the processing

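Of 173 named probe sets, 0 reversed the direction of their difference from the mean of the earlier stages under the alternatives run, which tested 165 of them with the 60th percentile filter, 168 with 1 probe set per gene and all 173 otherwise. The replicate number as a block gave 10923 calls against 10940 and changed no named call, and 5 of 20 arrays correlated best with their own number. The scaling and the weight of the stages mattered most. Under scaling to the hybridization controls, 2889 probe sets were lower than the mean of the earlier stages, 2230 were higher and 115 lower than every stage, 107 lower with no overlap, 2961 lower than the 1-cell, 2866 lower than the 2-cell, and 7459 higher and 403 lower than the 8-cell stage. The restricted set, in an alternative chosen after seeing the data, then held 69 probe sets, 33 of them shared with the 44, and the mirror set 5. Named calls lost there included Fgf4, Gata4, Cbx3, Mpp5, Cldn10, Gjb2, Gjc1 and Id1. In most lists fewer members were then lower, with 0 of the DNA replication and primitive endoderm genes and 9 of the M phase genes. Over all 10257 genes the number lower than the mean went from 3885 to 1808, and the median became 0.15. Median centring left 604 lower than every stage, 457 with no overlap and 2454 lower than the 8-cell stage. List medians that turned were iron handling (0.0375 with median centring, 0.363 with hybridization controls), p53 targets (0.20) and blood markers (0.0499) with hybridization controls, and placental and imprinted genes (−0.0487) with the median over the probe sets of a gene. With the 16 earlier arrays as 1 group, which adds the differences between stages to the spread, 2535 were higher and 3489 lower, and Tead4, Tfap2c, Pou5f1, Gata6, Pdgfra, Plat, Pramel7, Obox3, Ovgp1 and Id1 were among 21 named probe sets no longer called. With 1 probe set per gene, and so fewer tests, 2694 were higher and 3885 lower than the mean, 860 higher than every stage, 727 with no overlap, and the counts higher and lower were 2686 and 3457 against the oocyte, 2930 and 3860 against the 1-cell, 2451 and 3435 against the 2-cell and 2072 and 2724 against the 8-cell stage. A 2-fold minimum left 2756 higher and 2685 lower than the mean, and 767 and 293 than every stage. The level rule at the 40th percentile took 27 probe sets, and after quantile normalization 50, of which 42 were shared. A larger pseudocount lost Tead4. Leaving out each array in turn gave 4509 to 4807 higher and 5323 to 6398 lower than the mean, 1342 to 1486 higher and 952 to 1399 lower than every stage, 1199 to 1250 and 697 to 933 with no overlap, 3074 to 3409 higher and 3455 to 4876 lower than the 8-cell stage, 44 to 51 restricted and 12 to 15 mirror probe sets. Tfap2c lost its call without blastocyst array 1, 2 or 3. Dim probe sets near the pooled median limit what the level rule can show.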
